A study of Mus musculus with 31 samples.

Results

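The third of a series of 16 h fasts was described here across the genes of mouse liver. The animals were male C57BL/6 mice aged 3 to 4 months that had been through 2 earlier fasts of 16 h within 8 weeks and had regained their normal growth after each. Livers taken in the morning at the end of a further 16 h fast (Fast-Fast-Fast, 7 arrays) were compared with livers of mice with the same history taken in the ad libitum fed state (Fast-Fast-Fed, 8 arrays). These 15 arrays are part of 31. The other 16 came from mice fed ad libitum throughout, sampled fed (Fed-Fed-Fed, 8 arrays) or after their first 16 h fast (Fed-Fed-Fast, 8 arrays). Each array held total RNA from the liver of 1 mouse, on an Affymetrix whole-transcript array. All values are log2 signals, so that a difference of 1 is a 2-fold change, and each of 22180 genes was represented by the probe set with the highest mean signal. Hepatocyte transcripts bore out the tissue label: Alb, serum albumin, averaged 12.98 in fed livers with a change of 0.00 in fasted ones, and the highest signal of the 15 arrays was 13.03.

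A liver deprived of food changes from storing to supplying fuel. As insulin falls and glucagon and glucocorticoids rise, fatty acids released by adipose tissue reach the hepatocyte, are oxidised in mitochondria and peroxisomes and are partly turned into ketone bodies, while glucose is made from lactate, glycerol and amino acids. The nuclear receptor PPAR-alpha is the main activator of the fatty acid oxidation genes, and the SREBP factors, which are active in the fed state, drive the genes of fatty acid and sterol synthesis.

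The third fast changed 2569 of the 22180 genes (11.6%) at an adjusted p under 0.05. Higher in the fasted livers were 1344 genes (6.06%), and lower were 1225 (5.52%). Most changes were small. The median size among the 2569 was 0.464 on the log2 scale, or 1.38-fold, and 787 of the rises and 667 of the falls were below 0.5. Changes above 2-fold were found for 145 rises (0.654% of all genes) and 151 falls (0.681%). Of these, 28 rises and 32 falls lay between 2 and 3 on the log2 scale, and 11 rises and 9 falls exceeded 3. The 7 fasted livers all lay above the 8 fed livers in 508 genes (2.29%) and all below them in 462 (2.08%), and among the changes above 2-fold this held for 120 of 145 rises and 125 of 151 falls. The median change of all genes was 0.00. Calls were concentrated among the brighter genes: in 4 bins of 5545 genes by mean signal, the dimmest held 19 called genes (0.343%), the next 91 (1.64%), the third 729 (13.1%) and the brightest 1730 (31.2%). No detection limit was set here for a single gene, so the few calls among dim genes do not show that those transcripts were unchanged.

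Genes are grouped below into lists by function or cell type. The counts of a list are to be read against the shares given above, both over all genes and by mean signal. In the brightest bin 31.2% of genes were called, so a list of bright genes is not set apart by exceeding 11.6%. The lists measured 1078 different genes, of which 390 were called. Leaving out a single array moved 24 of 114 list counts in a given direction by more than 1.5 times, and 22 of these 24 were counts of 3 or fewer genes. The other two, for clock genes and Kupffer cell markers, are given where they are described.

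**Figure D1:**
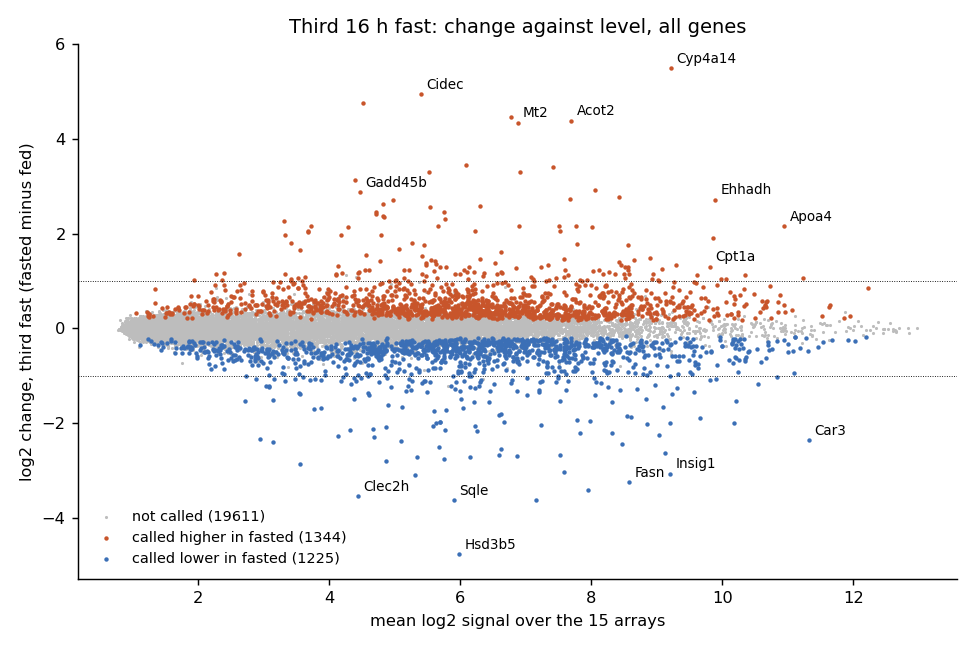
Each point is 1 of 22180 genes, with its mean log2 signal over the 15 arrays on the horizontal axis and its log2 change in the third fast (fasted minus fed) on the vertical axis. The dotted lines mark 2-fold changes, orange points are the 1344 genes called higher in fasted livers and blue points the 1225 called lower, and Cyp4a14 (5.50) and Hsd3b5 (-4.78) lie farthest from 0.

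Transcripts for the oxidation of fatty acids made up much of the upper end. Cyp4a14 encodes a cytochrome P450 that hydroxylates fatty acids at their omega end and is a classic PPAR-alpha target. Its signal ran from 5.30 to 8.82 in fed livers (median 6.53) and from 12.08 to 12.22 in fasted livers (median 12.15). Fed animals thus differed from one another by over 3 log2 units, fasted animals hardly at all, and the groups were far apart. The rise was 45.1-fold (log2 change 5.50, SE 0.54, adjusted p = 1.51e-09). Its relative Cyp4a31 rose by 3.31 (SE 0.27). Ehhadh, the bifunctional enzyme of peroxisomal beta-oxidation, lay between 8.26 and 9.02 in fed livers (median 8.61) and between 11.04 and 11.60 in fasted livers (median 11.36). With little spread in either group and no overlap, its rise of 2.72 (SE 0.10, adjusted p = 4.29e-19) had the smallest p of all genes.

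Of 19 measured genes of peroxisomal and omega oxidation, 13 rose and 1 fell, with a median change of 0.77. Acot3, a peroxisomal acyl-CoA thioesterase, rose by 3.14 and its neighbour Acot4 by 1.76. Pex11a, which promotes the division of peroxisomes, rose by 1.77, the thiolase genes Acaa1a and Acaa1b by 0.84 and 0.96, and Hsd17b4, the other bifunctional enzyme, by 0.63. The gene that fell was Nudt7, a peroxisomal hydrolase that degrades coenzyme A and its esters, with a change of -2.25. The cytosolic thioesterase Acot1 ran from 4.15 to 5.26 in fed livers (median 4.58) and from 8.86 to 9.59 in fasted livers (median 9.17), a 22.1-fold rise (log2 change 4.47, SE 0.24, adjusted p = 2.21e-15). Its mitochondrial counterpart Acot2 ran from 4.72 to 6.24 and from 9.59 to 11.01, with medians of 5.74 and 9.87, and rose by 4.39 (SE 0.27). Neither gene's groups overlapped. The Acot and Cyp4a genes have near-identical copies, and how far their probe sets tell the copies apart was not tested.

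The mitochondrial part of the pathway moved in smaller steps. Of 18 genes of mitochondrial beta-oxidation, 12 rose and 1 fell, with a median of 0.59 and no rise above 0.91. Acadm, the medium-chain acyl-CoA dehydrogenase, ran from 10.20 to 10.41 in fed livers (median 10.32) and from 11.01 to 11.36 in fasted livers (median 11.22), so that the groups stood well apart despite a modest rise of 0.90 (SE 0.07, adjusted p = 3.20e-12). Decr1, which handles double bonds of unsaturated chains, rose by 0.91 (SE 0.07), and Hadha and Hadhb, the subunits of the trifunctional protein, by 0.70 and 0.91, although the probe set of Hadhb was dim, with means of 1.84 and 2.75. Acadsb, which acts on short branched chains derived from isoleucine, fell by 0.31. Of 17 genes of fatty acid uptake, activation and the carnitine shuttle, 11 rose and 3 fell, with a median of 0.57. The shuttle carries fatty acids into mitochondria as carnitine esters. Slc22a5, the carnitine importer of the plasma membrane, rose by 2.31 (SE 0.23), Crat, carnitine acetyltransferase, by 2.15 (SE 0.14, but 1.31 when its probe sets were averaged), Cpt1a, which makes the esters, by 1.30, Slc25a20, the carrier of the inner membrane, by 1.2 (SE 0.08), and Cpt2, which releases the chains inside, by 0.94. Slc27a1 and Cd36, which take up fatty acids, rose by 1.97 and 1.02. In the opposite direction, the fatty acid binding protein Fabp5 fell by 2.81 (SE 0.29, and by 1.93 when its probe sets were averaged), and the acyl-CoA synthetases Acsl4 and Acsl5 fell by 0.49 and 0.36. Fabp1, the abundant liver form, changed by -0.13 and was not called.

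Of 7 measured genes of ketone body synthesis and transport, 3 rose and 1 fell, the median being 0.25. Slc16a1, which can carry ketone bodies and lactate across the cell membrane, rose by 1.29 (SE 0.09), Slc16a7, a related transporter, by 0.91 (SE 0.10), and Acat1, a mitochondrial thiolase, by 0.43. Bdh1, which reduces acetoacetate to beta-hydroxybutyrate, changed by 0.25 and was not called. Bdh2, a cytosolic dehydrogenase named after it, fell by 1.24 (SE 0.16).

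Among 21 genes of gluconeogenesis and glycerol entry, 11 rose and 1 fell, with a median of 0.36. Pck1, phosphoenolpyruvate carboxykinase, ran from 9.95 to 11.24 in fed livers (median 10.77) and from 11.49 to 11.96 in fasted livers (median 11.80). All fasted livers were above all fed ones, and the rise was 2.10-fold (log2 change 1.07, SE 0.14, adjusted p = 5.44e-07). The aminotransferases Got1 and Gpt2, which feed amino acid carbon into the pathway, rose by 1.13 (SE 0.26) and 0.98 (SE 0.11), Ldha by 0.87 and Pcx, pyruvate carboxylase, by 0.62. G6pc, the catalytic subunit of glucose-6-phosphatase at the end of the pathway, ran from 9.57 to 10.89 in fed livers (median 10.10) and from 10.33 to 11.11 in fasted livers (median 10.54). The groups overlapped, fed replicate 7 and fasted replicate 4 being highest, and the rise of 0.46 (SE 0.15, adjusted p = 0.041) was near the threshold. It was no longer called in 14 of 23 alternative analyses, with an adjusted p of up to 0.124. Among these were the analyses without fasted replicate 2, 3, 4, 5 or 6 and without fed replicate 2, 3, 4, 5 or 8.

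Among genes that use or store glucose, more fell than rose. Of 16 genes of glycolysis and pyruvate entry, 7 fell and 2 rose. Pklr, the pyruvate kinase of liver, ran from 9.19 to 10.23 in fed livers (median 9.82) and from 6.35 to 8.36 in fasted livers (median 7.97). The groups did not overlap, and fasted replicate 4 was the lowest by a wide margin. Pklr fell by 2.02 (SE 0.20, adjusted p = 1.95e-09). Khk, fructokinase, fell by 0.77 (SE 0.14), Slc2a2, the glucose transporter of the hepatocyte, by 0.65 and Gckr, the regulator of glucokinase, by 0.57. Pdk4, a kinase that shuts off pyruvate dehydrogenase, rose by 1.37 (SE 0.34, adjusted p = 0.00443), and the groups overlapped. Of 16 glycogen genes, 5 fell and 2 rose. The falls included breakdown and synthesis alike: Pygl, glycogen phosphorylase, by 0.96 (SE 0.09), Gbe1, the branching enzyme, by 0.92 (SE 0.11), and Ppp1r3b, a subunit that targets a phosphatase to glycogen, by 0.90 (SE 0.19). Gys2, liver glycogen synthase, rose by 0.45 and Gaa, the lysosomal glucosidase, by 0.50.

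**Figure D2:**
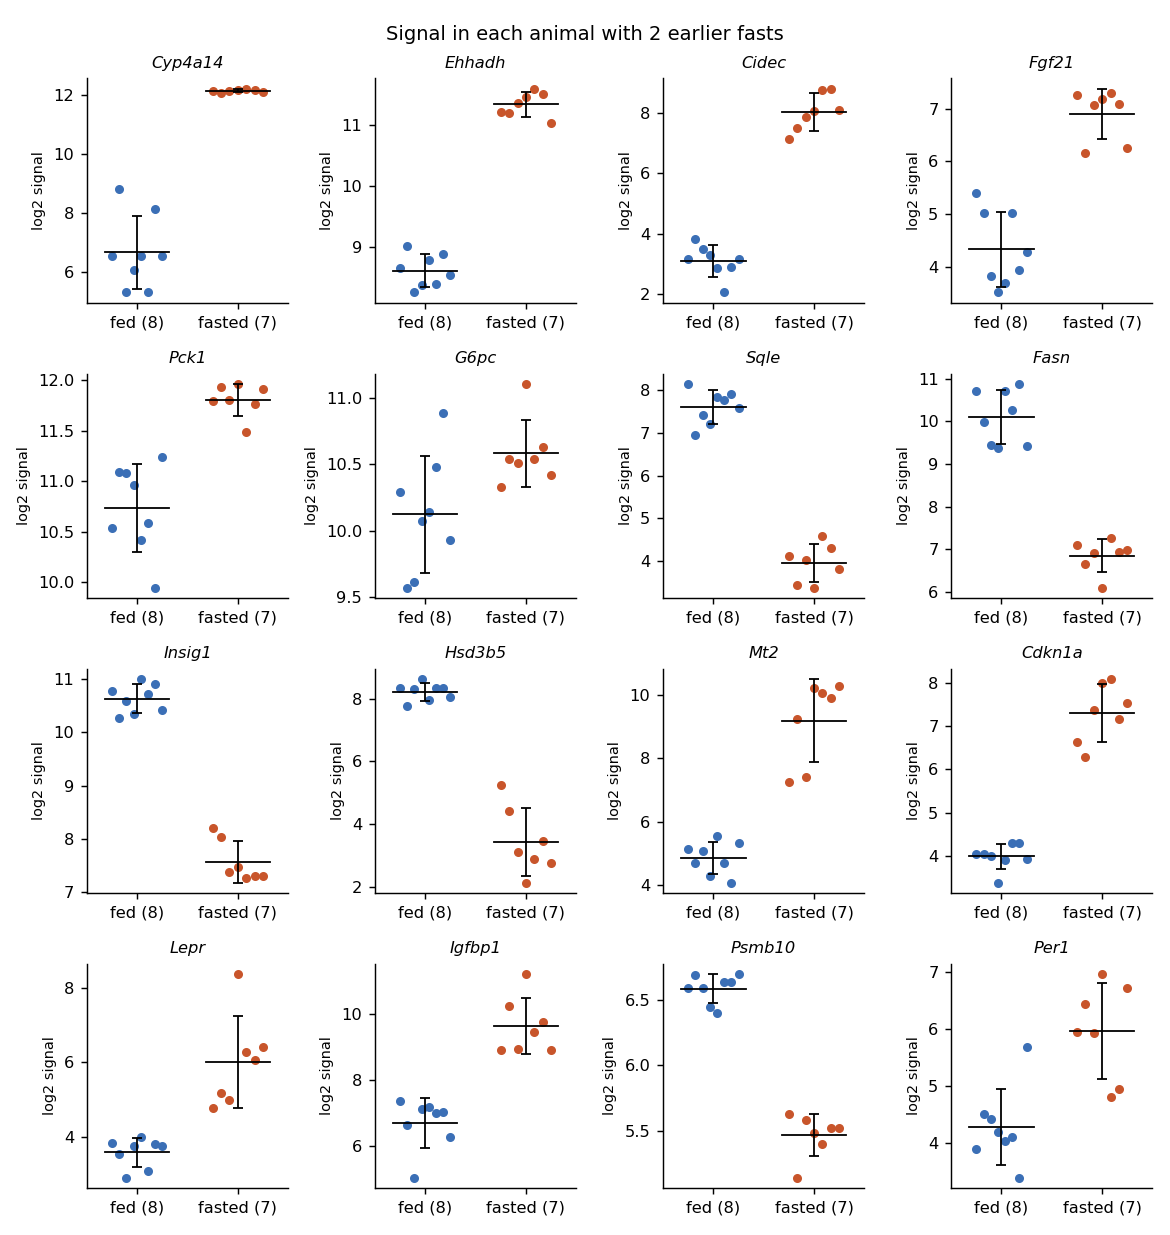
The log2 signal of 16 genes in each animal with 2 earlier fasts, fed livers (8, blue) on the left and fasted livers (7, orange) on the right of each panel, points in order of replicate number, with a line at the mean and bars of 1 SD. Cyp4a14 lies between 12.08 and 12.22 in all fasted livers, while Mt2 and Lepr differ widely among them and G6pc and Per1 overlap between groups.

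Nearly all genes of sterol synthesis fell. Of 16 measured, 15 fell and 0 rose, with a median change of -1.99, and all 15 showed fasted livers entirely below fed ones, against 2.08% of all genes. Sqle, squalene epoxidase, an early oxygen-requiring step, ran from 6.95 to 8.14 in fed livers (median 7.66) and from 3.39 to 4.58 in fasted livers (median 4.02), a 12.5-fold fall (log2 change -3.64, SE 0.23, adjusted p = 9.98e-14). Fdps, which makes farnesyl diphosphate, ran from 8.41 to 9.35 and from 5.00 to 5.52, and fell by 3.64 (SE 0.15, adjusted p = 1.33e-18). Both genes left a gap between the groups larger than the range within either. Along the pathway, Hmgcs1, which makes the substrate of HMG-CoA reductase, fell by 2.00, Mvk, Pmvk and Mvd, which convert mevalonate to isopentenyl diphosphate, by 1.5, 1.98 and 2.38, Fdft1, squalene synthase, by 1.86, and Lss, which closes the ring, by 2.51. Of the enzymes that trim lanosterol, Cyp51 fell by 2.70 (SE 0.15), Msmo1 fell by 2.73 (SE 0.17) and Nsdhl by 3.05 (SE 0.15). Tm7sf2 and Ebp fell least, by 0.48 and 0.43, and Hsd17b7 was not called (-0.12).

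The promoters of these genes are shown because 15 of the 16 fell. RefSeq promoters of GRCm38.p6 were matched by symbol for 13 of the 16 genes, 12 of which fell. In the 250 bases before the start site, all 13 held the box CCAAT on either strand, which was found in 38.7% of the 16990 genes of the arrays with a promoter and in 33.8% of all 32851 promoters of that length. Among called genes with a promoter, CCAAT was found in 46.8% of falls and 40.1% of rises. The sterol regulatory element, searched on both strands as TCACNCCAC, was found in 1 of the 13, Hmgcs1, and in 1.22% of the genes of the arrays and 1.05% of all promoters. The E-box CACGTG was found in 3 of the 13 and in 7.83% of the genes of the arrays. A direct repeat of AGGTCA spaced by 1 base, with 1 mismatch allowed, was found in 0 of the 13 and in 0.489% of those genes. These are matches of letters and not binding sites, and no match says only that these letters are absent from this window. The 150 bases before the start site are given 5′ to 3′ on the strand of the gene for Hmgcs1 (chr13:119690201-119690350, plus strand), Nsdhl (chrX:72918371-72918520, plus strand), Msmo1 (chr8:64733579-64733728, minus strand) and Cyp51 (chr5:4104698-4104847, minus strand), with matches in capitals, CCAAT on the other strand reading ATTGG. Hmgcs1 is shown for its element, and the others because they fell most among the genes with a promoter. Capitals mark only the sterol regulatory element and CCAAT, and in these windows no such match overlaps another.
Hmgcs1: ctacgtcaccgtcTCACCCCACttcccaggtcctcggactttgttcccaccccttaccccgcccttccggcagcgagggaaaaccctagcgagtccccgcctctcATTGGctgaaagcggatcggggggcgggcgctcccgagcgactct
Nsdhl: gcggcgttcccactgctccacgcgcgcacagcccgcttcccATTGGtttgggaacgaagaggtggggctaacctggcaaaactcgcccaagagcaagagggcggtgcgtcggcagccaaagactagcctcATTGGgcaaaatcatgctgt
Msmo1: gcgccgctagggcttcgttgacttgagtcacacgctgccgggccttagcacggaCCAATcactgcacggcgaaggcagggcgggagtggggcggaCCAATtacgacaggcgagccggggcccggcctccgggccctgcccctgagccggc
Cyp51: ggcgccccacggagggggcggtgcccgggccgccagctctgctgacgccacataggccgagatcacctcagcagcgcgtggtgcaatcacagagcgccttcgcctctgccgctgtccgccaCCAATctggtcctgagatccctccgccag

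Of 15 genes that control, take up or export sterol, 6 fell and 3 rose. Insig1, which retains the SREBP complex in the endoplasmic reticulum and is itself an SREBP target, ran from 10.27 to 11.01 in fed livers (median 10.66) and from 7.25 to 8.20 in fasted livers (median 7.38). Fasted replicates 1 and 2 kept the highest fasted values, 8.20 and 8.03, still below every fed liver, and the gene fell by 3.07 (SE 0.16, adjusted p = 9.18e-16). Insig2, its counterpart with the same role, rose by 1.02 (SE 0.14). Stard4, a cytosolic sterol carrier, fell by 2.01 (SE 0.15). Srebf2, which encodes an SREBP, and Scap, which encodes its escort, fell by 0.58 and 0.36.

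Most genes of fatty acid and triglyceride synthesis fell too. Of 29, 19 fell and 3 rose, with a median of -0.69. Fasn, fatty acid synthase, ran from 9.37 to 10.88 in fed livers (median 10.13) and from 6.10 to 7.27 in fasted livers (median 6.93). The groups were separated by over 2 log2 units, and the fall was 9.51-fold (log2 change -3.25, SE 0.22, adjusted p = 4.88e-13). Srebf1, which encodes the SREBP that drives these genes, ran from 6.33 to 7.49 and from 3.70 to 4.60 and fell by 2.77 (SE 0.19). Thrsp, a lipogenic nuclear and cytosolic protein, fell by 3.41 (SE 0.24), and Aacs, which returns acetoacetate to lipid synthesis, by 3.09 (SE 0.31). Acly and Acss2, which supply acetyl-CoA, fell by 2.45 and 2.20, Acaca, which makes malonyl-CoA, by 1.41, Elovl6, which lengthens palmitate, by 1.5 and Mlxipl, the glucose-responsive factor ChREBP, by 0.99. Scd1, the desaturase of stearate, changed by -0.24 and was not called. The rises were Lpin2, a phosphatidate phosphatase (0.81), Dgat1, which makes triglyceride (0.45), and Elovl2 (0.23), while Dgat2, the other acyltransferase of that step, fell by 0.37.

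Of 16 genes of the lipid droplet and lipolysis, 9 rose, 1 fell and 6 were not called, with a median of 0.73, and 9 showed fasted livers entirely above fed ones, against 2.29% of all genes. Cidec, a protein that enlarges droplets, ran from 2.05 to 3.82 in fed livers (median 3.17) and from 7.13 to 8.81 in fasted livers (median 8.08). The gap between the groups exceeded 3 log2 units, and the rise was 30.8-fold (log2 change 4.94, SE 0.27, adjusted p = 2.55e-15). The droplet coat genes Plin5, Plin4 and Plin2 rose by 2.16 (SE 0.15), 1.81 (SE 0.17) and 0.91. Pnpla2, the triglyceride lipase, rose by 1.28, G0s2, which inhibits it, by 1.37 and Mgll, the monoglyceride lipase, by 1.23. Abhd5, an activator of Pnpla2, fell by 0.31. Of 17 genes of apolipoproteins and lipoprotein assembly, 4 rose and 2 fell. Apoa4, an apolipoprotein of secreted particles, ran from 9.27 to 10.36 and from 11.38 to 12.54 and rose by 2.16 (SE 0.18), without overlap. Apoc2 and Apoa5, activators of plasma lipolysis, rose by 0.63 and 0.58, Mttp, which loads triglyceride, by 0.45, and Sort1, a sorting receptor, fell by 0.77 (SE 0.12). Apob, Apoa1 and Apoe changed by 0.05, -0.04 and 0.10 and were not called. Mfsd2a, a transporter of lysophospholipids, rose by 2.78 (SE 0.30) and Vnn1, a pantetheinase of coenzyme A turnover, by 2.74 (SE 0.18).

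Of 19 genes for factors that the liver secretes, 8 rose and 3 fell. Fgf21, a fasting hormone, ran from 3.52 to 5.40 in fed livers (median 4.11) and from 6.14 to 7.29 in fasted livers (median 7.09), the groups not overlapping, and rose 5.88-fold (log2 change 2.56, SE 0.32, adjusted p = 3.12e-07). Igfbp1, an insulin-repressed binding protein of insulin-like growth factors, ran from 5.03 to 7.36 and from 8.90 to 11.21, with the highest value in fasted replicate 4, and rose by 2.93 (SE 0.38). Angptl4, an inhibitor of lipoprotein lipase, rose by 2.15 (SE 0.24), and Angptl8, its feeding-induced relative, fell by 1.94. Igf1 itself changed by 0.02 and was not called.

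**Figure D3:**
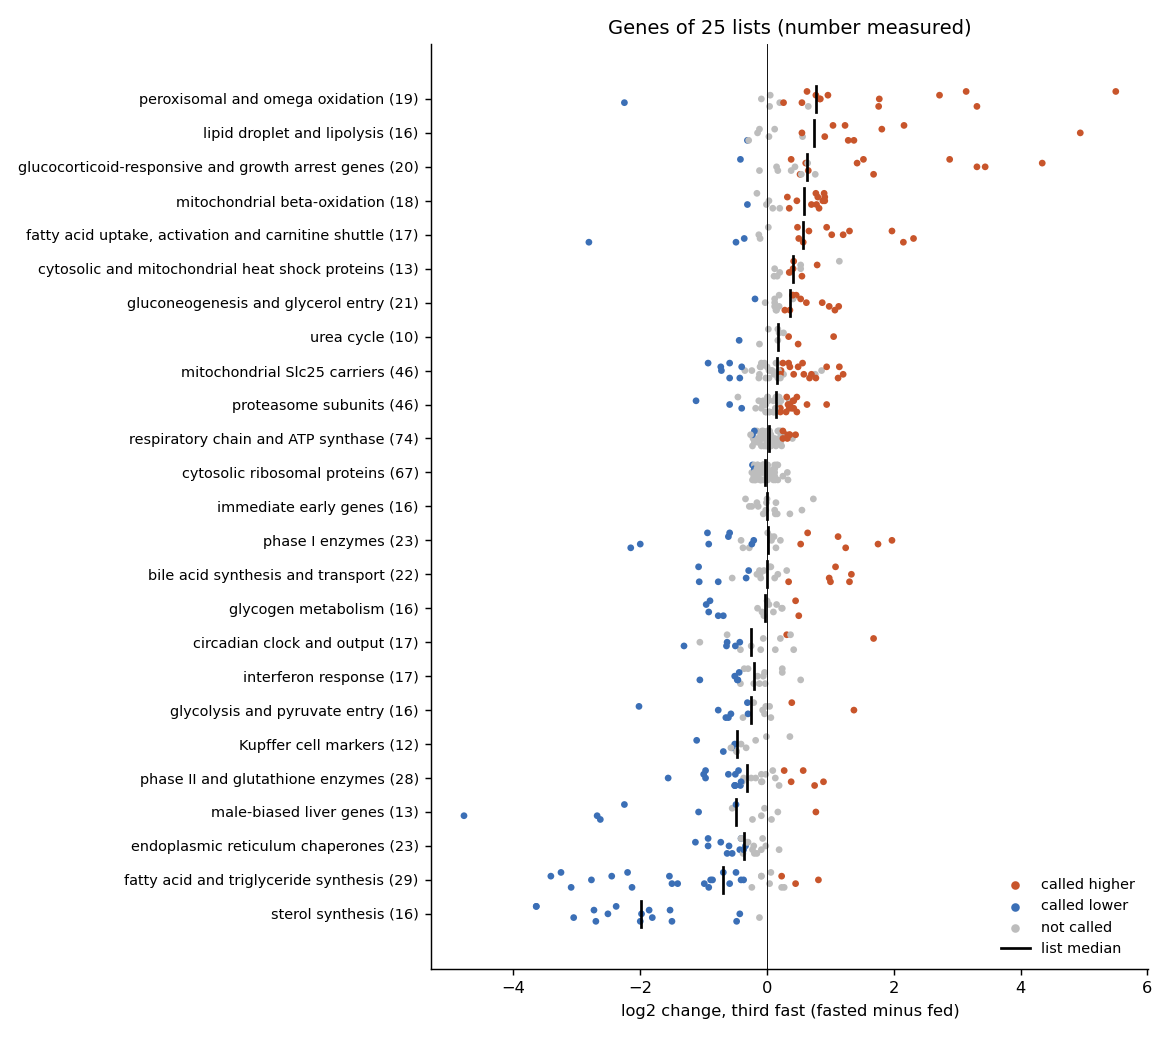
Log2 change in the third fast (horizontal axis, fasted minus fed) for the members of 25 gene lists, 1 point per gene, with the number measured in parentheses, called genes in colour and a black line at the median of each list. The medians run from -1.99 for sterol synthesis to 0.77 for peroxisomal and omega oxidation, and lie near 0 for ribosomal proteins and the respiratory chain.

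Hormone signalling genes changed in part. Among 20 insulin and FoxO genes, 2 rose and 3 fell. Irs2, the insulin receptor substrate induced by fasting, ran from 4.37 to 5.54 and from 5.64 to 7.40, just without overlap, and rose by 1.29 (SE 0.24). Foxo1 rose by 0.46 (SE 0.12, adjusted p = 0.00922), a call lost when its probe sets were averaged (0.18, adjusted p = 0.384). The falls were those of the sestrins Sesn3 (-0.48) and Sesn1 (-0.34) and of Pik3r1 (-0.36), a subunit of the kinase below the insulin receptor. Without fed replicate 6 there were 5 falls. Another sestrin, Sesn2, counted in the integrated stress response list, rose by 0.84 (SE 0.17). In the growth hormone and leptin axis, Lepr, the leptin receptor, ran from 2.90 to 4.00 in fed livers (median 3.75) and from 4.76 to 8.37 in fasted livers (median 6.05). Fasted replicate 4 stood at 8.37 and the other 6 at 6.42 or less, all above the fed livers. The rise was 2.42 (SE 0.42, adjusted p = 5.72e-05). Ghr, the growth hormone receptor, fell by 0.91 (SE 0.11). Cish, an inhibitor of cytokine signalling induced by growth hormone, ran from 1.95 to 4.61 in fed livers, where replicates 1, 3 and 7 stood below 3, and from 1.97 to 2.87 in fasted livers. The groups overlapped, and the fall of 1.21 (SE 0.34) had an adjusted p of 0.0123.

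Many liver genes differ between the sexes through the pulses of growth hormone, and several male-biased ones were among the deepest falls in these males. Of 13 measured, 6 fell and 1 rose, with a median of -0.49. Hsd3b5, a male-specific steroid dehydrogenase, ran from 7.75 to 8.63 in fed livers (median 8.31) and from 2.14 to 5.25 in fasted livers (median 3.12). The fed livers lay close together and the fasted ones spread over 3 log2 units, with replicates 1 and 2 highest and replicate 4 lowest. It fell 27.5-fold (log2 change -4.78, SE 0.36, adjusted p = 2.95e-12). Serpina4-ps1, a serpin pseudogene, fell by 2.68 (SE 0.32), Selenbp2, a selenium binding protein, by 2.63 (SE 0.38) and Slco1a1, an organic anion importer, by 1.08. Others of the list did not pass, such as Mup20 (-0.04) and Cyp2d9 (0.07). Of 17 female-biased genes, 4 rose and 0 fell: Cyp17a1, which makes androgen and glucocorticoid precursors, by 3.41 (SE 0.33), Fmo2, a flavin monooxygenase, by 1.42 (SE 0.21), Cyp2b10, a drug-metabolising cytochrome, by 1.12 and Tox, a DNA-binding factor, by 1.04. The median of the list was 0.07, but reached 1.08 among the alternative analyses. The list was dim in these males, with means of 2.42 to 2.81 in fed and 2.85 to 3.21 in fasted livers. Cyp2b9, Cyp3a16 and Sult2a1 changed by -0.18, -0.05 and 0.02 without a call, which does not show that the dim members were unchanged.

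Of 20 glucocorticoid-responsive and growth arrest genes, 11 rose and 1 fell, with a median of 0.63. Mt2, a metallothionein that binds zinc, ran from 4.07 to 5.55 in fed livers (median 4.88) and from 7.24 to 10.28 in fasted livers (median 9.90). Fasted replicates 1 and 3 lay at 7.24 and 7.41 and the other 5 at 9.25 or more, and none reached down to the fed range. Mt2 rose by 4.34 (SE 0.38, adjusted p = 1.75e-10), and Mt1, in which the same 2 animals were lowest, rose by 3.44 (SE 0.25). Cdkn1a, the cell cycle inhibitor p21, ran from 3.38 to 4.30 in fed livers (median 4.02) and from 6.28 to 8.09 in fasted livers (median 7.36) and rose 9.91-fold (log2 change 3.31, SE 0.35), without overlap. Gadd45b, a stress-induced growth arrest gene, rose by 2.88 (SE 0.19), Zbtb16, a zinc finger repressor, by 1.52 and Fkbp5, which restrains the glucocorticoid receptor, by 1.42. Nr3c1, the receptor itself, fell by 0.42. Tat, Klf9 and Dusp1 changed by 0.15, 0.17 and -0.12 and were not called. Of 11 zinc transporter genes, 1 rose and 2 fell, all by less than 0.7: Slc39a5 (0.45, not called in 11 of 23 alternative analyses), Slc39a10 (-0.66) and Slc39a7 (-0.51). Of 16 immediate early genes, such as Fos, Jun and Egr1, 0 were called in limma's fit and 1 had an unadjusted p under 0.05.

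Of 33 nuclear receptors and coactivators, 8 rose and 2 fell. Nr1i3, the xenobiotic receptor CAR, ran from 7.76 to 8.19 in fed livers and from 8.32 to 9.35 in fasted livers, where replicate 4 stood at 8.32 and the other 6 at 9.03 or more. It rose by 1.15 (SE 0.12). Ppara rose by 0.52 (SE 0.11), Nr1i2, the receptor PXR, by 0.50 (SE 0.10) and Esr1 by 0.45, while Nr5a2 fell by 0.32.

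Proteins folded in the endoplasmic reticulum need chaperones there. Of 23 genes for them, 11 fell, 0 rose and 12 were not called, with a median of -0.37. Pdia6, a disulfide isomerase, ran from 9.09 to 9.59 in fed livers and from 7.97 to 8.86 in fasted livers, without overlap, and fell by 0.93 (SE 0.12, adjusted p = 3.43e-07). Hyou1, a large chaperone, fell by 0.93 (SE 0.19) and Sdf2l1, a cofactor of the chaperone BiP, by 1.13 (SE 0.29), both with overlapping groups. Xbp1 and Ern1, the factor and sensor of the unfolded protein response, fell by 0.60 and 0.63. Hspa5, BiP itself, changed by -0.30 and was not called. Cytosolic and mitochondrial heat shock genes showed 5 rises and 0 falls among 13, with a median of 0.41, among them the small heat shock protein Hspb1 (0.79), the cochaperone Bag3 (0.55) and Hsp90aa1 (0.41). Of 46 proteasome genes, 16 rose and 3 fell, with a median of 0.13. The ubiquitin receptor Psmd4 rose by 0.94 (SE 0.08) and the assembly chaperone Psmd9 by 0.62 (SE 0.12). The 3 falls were Psmb10, Psmb9 and Psmb8, the catalytic subunits of the immunoproteasome, which replace the standard subunits in immune and interferon-exposed cells. Psmb10 ran from 6.40 to 6.70 in fed livers (median 6.61) and from 5.14 to 5.63 in fasted livers (median 5.52), far apart, and fell by 1.12 (SE 0.09, adjusted p = 3.54e-11). Psmb9 fell by 0.59 and Psmb8 by 0.40.

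The list for autophagy and lysosomes held 28 measured genes, with 8 rises and 1 fall. Bnip3, a receptor for the removal of mitochondria, rose by 1.00 (SE 0.08), and the membrane markers Map1lc3b and Map1lc3a by 0.75 and 0.72, while the kinase Ulk2 fell by 0.50. In the integrated stress response, 3 of 23 genes rose and 2 fell. Atf5, a transcription factor translated under stress, rose by 1.15 (SE 0.11), and Atf4, a related factor, fell by 0.39 (SE 0.10). Of 17 aminoacyl-tRNA synthetases, which charge tRNA for translation, 5 fell and 1 rose, with Cars at -0.85 and Tars at -0.57. Few genes of the ribosome were called: of 67, 2 fell and 0 rose, with a median of -0.03, and Rpl4 (-0.23) and Rps12 (-0.20) were both lost in some alternative analyses. Of 74 respiratory chain and ATP synthase genes, 7 rose and 2 fell, with a median of 0.03, and Cox8a rose by 0.45 (SE 0.10). Of 46 mitochondrial carriers of the Slc25 family, 16 rose and 7 fell. Slc25a22, a glutamate carrier, rose by 1.14 (SE 0.14) and Slc25a47, a liver-specific carrier, by 1.12 (SE 0.14), while Slc25a37, which brings iron into mitochondria, fell by 0.93.

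Amino acid handling was split. In the urea cycle, 3 of 10 genes rose and 1 fell. Asl, argininosuccinate lyase, ran from 9.36 to 9.65 and from 10.09 to 10.88 and rose by 1.05 (SE 0.09), Arg1, which releases urea, rose by 0.49 (SE 0.10), and Otc, which makes citrulline, fell by 0.44 (SE 0.08). Cps1, the entry step, changed by 0.02 and was not called. Of 41 genes of amino acid breakdown, 8 rose and 8 fell. Aass, which degrades lysine, rose by 1.05 (SE 0.12) and Mat1a, which makes S-adenosylmethionine, by 0.84 (SE 0.06), while Haao, of the tryptophan to NAD route, fell by 0.83 (SE 0.07) and Prodh and Aldh4a1, which degrade proline, by 0.50 and 0.63. Of 22 amino acid transporters, 3 rose and 3 fell. Slc7a2, which imports arginine and other cationic amino acids, rose by 0.56 (SE 0.13). Slc3a1, a subunit of a cystine transporter, fell by 0.90 (SE 0.24) and Slc38a3, a glutamine transporter, by 0.39 (SE 0.08). Aqp8, a water channel of the hepatocyte, ran from 6.97 to 8.53 and from 4.13 to 6.02, without overlap, and fell by 2.55 (SE 0.27), 1 of 2 falls among 11 aquaporins, of which 0 rose.

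Bile acid genes had 6 rises and 5 falls among 22. Cyp7a1, the rate-limiting enzyme of bile acid synthesis, ran from 6.95 to 8.97 in fed livers (median 7.81) and from 8.01 to 10.05 in fasted livers (median 9.44). The groups overlapped, and the rise was 1.30 (SE 0.33, adjusted p = 0.00521). Cyp8b1, which sets the share of cholic acid, rose by 1.33 (SE 0.14) and Cyp39a1, an oxysterol hydroxylase, by 1.08. Abcb4, which exports phospholipid into bile, rose by 0.98, and Abcb11, which exports bile salts, fell by 1.07. Of 23 drug-metabolising phase I enzymes, 6 rose and 8 fell, with members of 1 cytochrome family on both sides: Cyp2c39 and Cyp2c38 rose by 1.97 (SE 0.17) and 1.75, and Cyp2c55 and Cyp2c70 fell by 2.15 (SE 0.22) and 2.00 (SE 0.16). With its probe sets averaged, Cyp2c55 fell by 1.47, and these genes have close copies. Of 28 phase II and glutathione enzymes, 12 fell and 5 rose, with a median of -0.31, and the glutathione transferases Gstm3 and Gsta3 fell by 1.56 (SE 0.17) and 0.97 (SE 0.13). In heme synthesis, Alas1, the rate-limiting enzyme, rose by 1.26 (SE 0.27) and Cpox by 0.88 (SE 0.09), while Alad fell by 0.46 (SE 0.11), the only 3 called among 17 genes of heme and iron.

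Clock genes hold the daily rhythm of liver transcription, and all animals were sampled in the morning. Of 17 clock and output genes, 2 rose and 5 fell. Per1, a core repressor also induced by glucocorticoids, ran from 3.39 to 5.68 in fed livers (median 4.14) and from 4.80 to 6.96 in fasted livers (median 5.95). Overlap came from fed replicate 8 at 5.68 and fasted replicates 5 and 6 at 4.80 and 4.94. It rose by 1.68 (SE 0.34, adjusted p = 0.000594). Bhlhe40, a repressor of clock genes, ran from 7.15 to 8.81 and from 5.69 to 7.14, almost touching, and fell by 1.31 (SE 0.26). Nr1d1, the repressor REV-ERB-alpha, fell by 0.64 (SE 0.18, adjusted p = 0.0153), and Bhlhe41, Cry2 and Nr1d2 by 0.63, 0.50 and 0.43. The count of 5 falls dropped to 2 without fasted replicate 4, and to 3 without fasted replicate 3, 5, 6 or 7 or fed replicate 2, 3, 4, 5 or 8.

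Transcripts of other liver cells were followed by marker lists, since fewer cells of a type and less RNA per cell cannot be told apart in whole tissue. Of 9 hepatocyte markers, 1 rose and 1 fell, with a median of -0.02, and the list mean ran from 11.84 to 11.91 in fed and from 11.83 to 11.95 in fasted livers. Hnf4a, a transcription factor of hepatocyte identity, rose by 0.30 (SE 0.07, adjusted p = 0.0016) without overlap, and Fgb, the fibrinogen beta chain, fell by 0.19 (SE 0.05, adjusted p = 0.0149), a call lost when only the groups compared were fitted (adjusted p = 0.0629). For Kupffer cells, 4 of 12 markers fell and none rose, with a median of -0.48, and the list mean ran from 4.86 to 6.07 in fed and from 4.77 to 5.65 in fasted livers. Folr2 ran from 4.89 to 6.82 and from 4.28 to 5.49 and fell by 1.11 (SE 0.28, adjusted p = 0.00465), with overlap, and Adgre1, Clec4f and Csf1r fell by 0.69, 0.55 and 0.51. The count of 4 dropped to 1 without fasted replicate 2, fasted replicate 5 or fed replicate 7, and to 2 without fed replicate 1 or 3. Of 7 MHC class II genes, 2 fell, H2-Ab1 by 1.10 (SE 0.26) without overlap and H2-Eb1 by 0.54 (SE 0.18, adjusted p = 0.0445), the latter not called in 13 of 23 alternative analyses. Of 17 interferon response genes, 5 fell, 0 rose and 12 were not called, with changes from -1.06 to 0.53. Among the falls were Gbp7 (-1.06), Irf7 (-0.51) and Irf1 (-0.47). The part of Kupffer cell RNA in these falls and in those of Psmb8, Psmb9 and Psmb10 was not tested.

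For stellate cells and fibroblasts, 3 of 12 markers fell and none rose, with list means of 5.57 to 5.91 in fed and 5.36 to 5.82 in fasted livers. Col3a1, a fibrillar collagen, ran from 3.78 to 4.69 and from 2.89 to 3.60 and fell by 1.09 (SE 0.15, adjusted p = 1.34e-06), and Lrat, which stores retinol as esters, fell by 0.73 (SE 0.14). Sinusoidal endothelial markers had 1 rise and 1 fall among 12. Lyve1, a hyaluronan receptor, ran from 4.71 to 5.67 and from 5.77 to 7.67, rising by 1.06 (SE 0.24), with fasted replicate 4 at 7.67 and the other 6 at 6.33 or less. Cdh5 fell by 0.36, a call lost without fasted replicate 2 or 4 or fed replicate 3, 7 or 8. Markers of cholangiocytes, lymphocytes, neutrophils and monocytes, erythroid cells and platelets, and adipocytes had 0 calls in limma's fit and 3 genes, all of the lymphocyte list, at an unadjusted p under 0.05, and the list means of these 5 sets lay between 1.44 and 2.72 in all 15 livers. Among pancreas and muscle markers, Cela1 fell by 0.78 and Tnnt3 by 0.27, both from dim signals. Of 14 pericentral genes, 5 fell and 3 rose, with Rgn at -1.02 and Cyp1a2 at -0.92, and of 9 periportal genes 3 fell and 1 rose, with Cdh1 at -0.87. The 3 pericentral rises dropped to 1 without fasted replicate 1, 3 or 5 or fed replicate 4 or 6. Of 22 acute phase genes, 6 rose and 6 fell. Lbp, which binds bacterial lipopolysaccharide, ran from 7.62 to 7.91 and from 8.97 to 9.44 and rose by 1.40 (SE 0.10), and Lcn2, which binds bacterial iron carriers, by 1.24 (SE 0.22), while Steap4, a metalloreductase, fell by 1.13 (SE 0.13).

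Of 26 cell cycle and replication genes, Ccnd3, a D-type cyclin, was the only one called, rising by 0.52 (SE 0.10). Of 50 chromatin modifying enzymes, 2 rose, 3 fell and 45 were not called. The 10% called was near the 11.6% of all genes. It was below the 13.1% of the third bin by mean signal, at whose upper edge the list means lay (5.05 to 5.19), and the 31.2% of the brightest. Hdac11, a deacetylase, fell by 0.53 (SE 0.11), Dnmt1, the maintenance DNA methyltransferase, by 0.46 (SE 0.10) and Hdac1 by 0.33, and the demethylases Kdm6a and Kdm5a rose by 0.34 and 0.26. Outside the lists, Clec2h, a C-type lectin gene, ran from 4.85 to 7.39 and from 2.10 to 2.94 and fell by 3.55 (SE 0.36). Adgrf1, an adhesion receptor, ran from 6.28 to 6.89 and from 3.16 to 5.53 and fell by 2.71 (SE 0.29). Its fed livers were alike and fasted replicate 4 was the highest of the fasted ones.

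Among the genes changed by more than 2-fold, the extreme values were not spread evenly over the fasted animals. How often the same animals held the extremes over all genes was not tested. Among the 151 genes that fell by more than 2-fold, fasted replicate 4 held the lowest of the 7 fasted values in 72 genes, with a median deviation of -0.25 from the median of the fasted group, and fasted replicate 1 held the highest in 61, with a median deviation of 0.25. Among the 145 that rose, fasted replicate 4 held the highest value in 45 and the lowest in 23, and fasted replicate 1 the lowest in 34. Fasted replicate 5 was lowest in only 6 of the 145. In the fed group, replicate 6 was lowest in 39 of the 145 and replicate 7 highest in 36 of the 151. The median SD of the 145 genes was 0.28 in fed and 0.33 in fasted livers, and that of the 151 genes 0.32 and 0.35, against 0.19 and 0.18 for all genes. Pearson's r between the 15 arrays, across genes, lay between 0.979 and 0.993. Without fasted replicate 4 the count of called genes was 2394, and without fasted replicate 1 it was 2506.

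**Figure D4:**
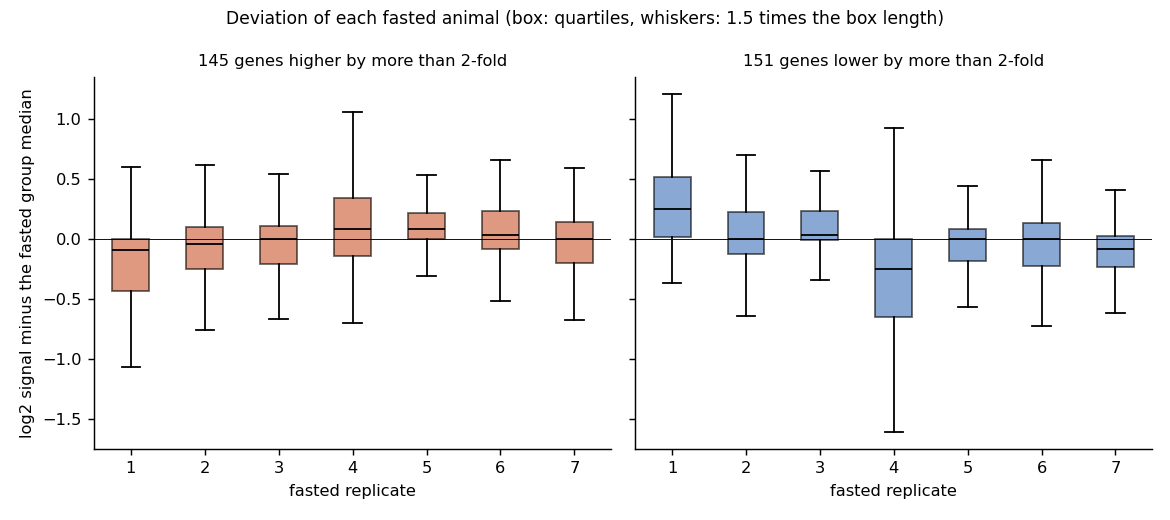
Deviation of each of the 7 fasted animals from the median of the fasted group (vertical axis, log2 units) over the 145 genes that rose (left) and the 151 that fell (right) by more than 2-fold, as boxes of the quartiles with a line at the median and whiskers of at most 1.5 box lengths. Replicate 4 lies lowest among the falling genes, at a median of -0.25, and replicate 1 highest, at 0.25.

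The first fast, in mice without earlier ones, shares no array with the third and serves as its comparison. It changed 2768 genes (12.5%), and 1831 were called in both, which is 71.3% of the third fast's genes and 66.1% of the first's. Of the 1831, 1829 moved in the same direction. The test of the difference between the fasts called 0 genes (0%) in limma's fit, with 1023 at an unadjusted p under 0.05 and a lowest adjusted p of 0.135. Of the 296 genes that changed by more than 2-fold in the third fast, 295 had the same sign in the first. Choosing genes by their change in the third fast favours a larger change there, and genes chosen by the first fast were not compared in this way. The values for these 296 therefore do not show that changes were of equal size in the 2 fasts. The median ratio of the third to the first change was 0.996, and 142 of the 296 changed more in the third. For 271 of them the changes differed by less than 0.5, and over all 296 by -1.21 to 1.37, with 95% intervals of a median half-width of 0.48. These intervals are for 1 gene at a time, while calls were adjusted over 22180 genes. Among the 296, the lowest unadjusted p for the difference in limma's fit was 0.000222, and the lowest adjusted p was 0.616. A difference in a single gene well above 0.48 could therefore go uncalled, and the absence of calls does not show that the fasts were alike.

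**Figure D5:**
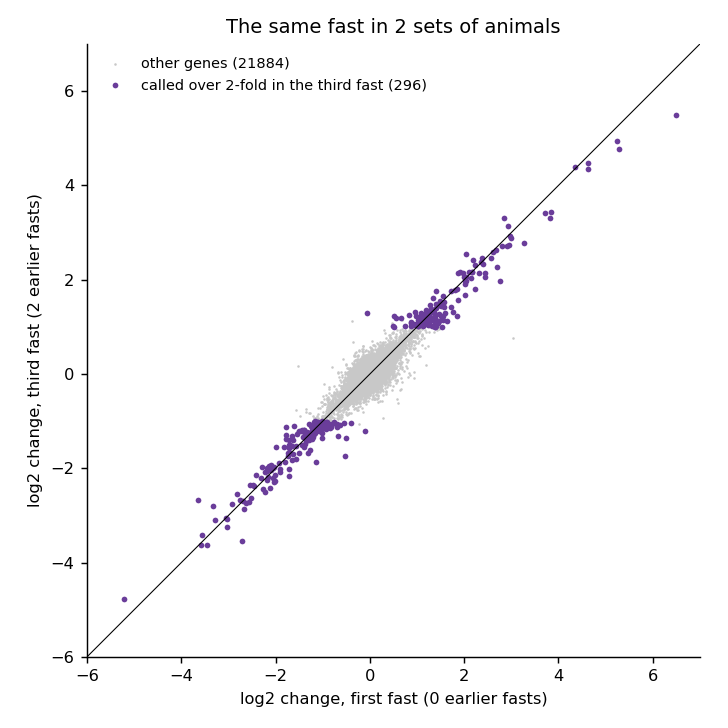
Log2 change in the third fast (vertical axis) against that in the first fast (horizontal axis) for 22180 genes, with the 296 genes changed by more than 2-fold in the third fast in purple and the line of equal change. The purple points follow the line, and 295 of 296 have the same sign in both fasts.

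The genes with the lowest p for the difference were Ccnjl, Arhgap31 and 1700025C18Rik, each with an adjusted p of 0.135. Ccnjl, a cyclin-like gene of low signal, changed by 0.41 in the third fast and -0.33 in the first. Arhgap31, a regulator of small GTPases, changed by -0.43 and 0.34, and 1700025C18Rik, an unnamed gene near the bottom of the signal range, by 0.51 and -0.24. Angel1 and Ttc9c followed, with adjusted p of 0.34 and 0.573. Without fasted replicate 6, 1700025C18Rik was the 1 gene called. Of the metabolic genes above, Cyp7a1 changed by 1.30 in the third and by -0.06 in the first fast (difference 1.37, 95% interval 0.44 to 2.29, adjusted p = 0.999), Cish by -1.21 and -0.10, Psmb10 by -1.12 and -0.69, and Bag3 by 0.55 and 0.02. None of these differences was called. In fed livers with 2 and with 0 earlier fasts, the means were 7.91 and 8.95 for Cyp7a1, 3.60 and 2.46 for Cish, 6.59 and 6.34 for Psmb10, and 5.93 and 6.32 for Bag3. In fasted livers they were 9.21 and 8.89, 2.39 and 2.36, 5.47 and 5.65, and 6.48 and 6.34. A difference between the changes can thus come from the fed livers as well as the fasted ones, and which was not tested. The clock list had 2 rises and 5 falls in the third fast and 1 rise and 0 falls in the first, with medians of -0.25 and -0.08, and the lowest adjusted p for a difference in any of its genes was 0.999. Its 5 falls dropped to as few as 2 without 1 array. Other lists had more calls in the first fast. Glucocorticoid-responsive and growth arrest genes had 11 rises in the third and 16 in the first (medians 0.63 and 1.05). Endoplasmic reticulum chaperones had 11 and 17 falls, and Kupffer cell markers 4 and 8. No gene of these lists was called for the difference.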

How the data were processed

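Liver RNA of 31 mice was labelled with biotin from 100 ng of total RNA and hybridized to Affymetrix whole-transcript arrays, per the labels' protocols. The deposited values are log2 signals that the authors made with RMA, per the submitters' processing notes, a method with background correction, quantile normalization and a summary over the probes of a set. Which RMA version was used is not given in those sources, and the log base is taken from RMA. Scanner signals and detection calls were not used here, and the number of arrays limits the precision. No batch is given in the labels.

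Of 41345 probe sets, 23521 carried a single gene symbol in the platform's annotation, 1814 carried several and 16010 carried none. RefSeq's annotation (GRCm38.p6) listed 23328 of the 23521 by identifier, under the same symbol each time. For 1082 genes with more than 1 probe set, that with the highest mean over the 31 arrays was used, giving 22180 genes. Apart from these, 135 of the 1814 and 200 of the 16010 probe sets were called.

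All 4 groups were fitted as group means with limma 3.58.1 in R 4.3.3, with data.table (version 1.17.8), sharing 1 estimate of the spread. A gene was called where its 2-sided p, adjusted over the 22180 genes by Benjamini and Hochberg's method, was under 0.05. On simulated data with 200 changed genes in each of 10 draws, the third fast comparison recovered 13.7% of 1.2-fold, 81% of 1.5-fold and 97.6% of 2-fold changes, and 5.05% of calls were false. The draws held far fewer changed genes than the 2569 called here, and their noise was drawn independently for each gene. These shares therefore do not carry over directly to the real comparison. Lists, 46 by pathway and 11 by cell type, are described by counts and medians, without a set test. The comparison and lists were chosen with earlier results of these data known. Genes named by rule are the 15 largest rises and falls (without predicted gene models), up to 3 called genes per list by size of change, the 5 smallest p, the 5 smallest p for the difference between the fasts, and Pck1, G6pc, Cyp7a1, Fgf21, Srebf1 and Fasn. Other list members, among them all genes given as not called, were chosen after their values were seen. Alternatives were the mean of a gene's probe sets, a filter on dim genes, median centring, cyclic loess, array weights, an intensity trend with robust prior, only the groups compared, the replicate number as a block, and leaving out each of the 15 arrays. The replicate numbers did not pair the animals: deviations of same-numbered fed and fasted livers correlated at -0.02 to 0.05, and 1 of 7 correlated best with its own number. Plots used matplotlib 3.10.9 (Python 3.11.15).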

Additional observations from a re-analysis of the deposited data

Results flagged for a closer look

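In groups of 7 or 8 arrays, 430 sets of values were examined for a single animal far from the rest, those of the named genes and the list means, and 30 (6.98%) held one, where chance gives about 1 in 20. The sets are not independent, since list means contain named genes and all sets come from the same 15 animals. One deviating animal can be counted repeatedly, so the 30 cannot be read as an excess over chance. No cause was tested.

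Fasted replicate 4 accounted for 9 of them. It was lowest for Pklr (6.35, next animal 7.79), Nr1i3 (8.32, next 9.03), Lect2 (6.98, next 7.65) and the list means of glycolysis and pyruvate entry (6.82, next 7.16) and aquaporins (3.94, next 4.16). It was highest for Cdh1 (7.19, next 6.28), Lyve1 (7.67, next 6.33), G6pc (11.11, next 10.63) and the list mean of periportal zone genes (9.73, next 9.17).

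Of the other fasted animals, replicate 1 was lowest for Slc39a10 (3.13) and the mitochondrial Slc25 carriers (list mean 5.65), and highest for Col3a1 (3.60). Replicate 2 was highest for Sdf2l1 (7.11) and lowest for the list means of apolipoproteins and lipoprotein assembly (8.77), chromatin modifying enzymes (5.05) and sinusoidal endothelial markers (6.41). Replicate 5 was lowest for Pck1 (11.49), replicate 6 for Ppp1r3b (6.31) and 1700025C18Rik (1.65), and replicate 7 for Cars (4.76) and the list mean of autophagy and lysosome (7.05).

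Among fed animals, replicate 4 was lowest for Cdkn1a (3.38) and highest for the list mean of insulin and FoxO signalling (5.79). Replicate 2 was lowest for Irf7 (5.90) and highest for the list mean of the integrated stress response (4.17). Replicate 1 was lowest for Cyp2f2 (11.60) and highest for the list mean of cholangiocyte markers (2.72), replicate 5 was lowest for Clec4f (6.19) and the list mean of Kupffer cell markers (4.86), and replicate 6 was lowest for 1700025C18Rik (1.33).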

How the results depend on the processing

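Across 23 alternatives, 15 of them leaving out 1 array, the third fast called between 2277 genes (without fasted replicate 5) and 2957 (without dim genes), against 2569. Of these 2569, 1857 (72.3%) were called with the same sign in all 22 alternatives that tested every gene, as were 293 of the 296 changed by more than 2-fold. With the replicate block 2584 genes were called, although same-numbered animals share only a number. In that fit G6pc, H2-Eb1 and Cdh5 were no longer called. Centring arrays on their median shifted the median gene by 0.02, and rises then made up 57.9% of calls, against 52.3% in the fit as reported and 48.9% with cyclic loess. The difference between the third and the first fast called 0 to 1 genes when single arrays were left out. Of 3631 values of 158 named genes under the alternatives, 0 reversed and 72, in 11 genes, lost their call: Foxo1, Slc39a5, H2-Eb1, Rpl4, Rps12, Fgb, Adgre1, Clec4f, Cdh5, Tnnt3 and G6pc. The filter on dim genes left no neutrophil and monocyte or skeletal muscle marker to test. On simulated data, with far fewer changed genes than were called here, 13.7% of 1.2-fold changes were recovered. That share does not carry over directly, but little can be said of genes with small changes that were not called.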
